A study of Rattus norvegicus with 9 samples.

Results

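The Notch pathway was examined through 10 genes in fetal rat lung: the receptors Notch1, Notch2, Notch3 and Notch4, the ligands Jag1, Jag2, Dll1 and Dll4, and the target genes Hes1 and Hey1. They were chosen by name, as the main pathway members, and all 10 of them were found by NCBI Gene ID among the 17465 genes of the deposited table. All 10 also passed the filter on low counts, which kept 12966 genes for testing. RNA depleted of ribosomal RNA had been sequenced from 9 lungs of Sprague-Dawley rat fetuses, 3 per group. The control group was untreated control lung, the hypoplastic group was untreated hypoplastic lung (a lung too small for its age, here after oligohydramnios, a lack of amniotic fluid), and the treated group was hypoplastic lung given AFSC-EV, the membrane vesicles that amniotic fluid stem cells release. The sources used here give neither fetal age nor litter, nor the dose, route and time of the vesicles. RNA was extracted from frozen, powdered lungs, all on the same day. The labels do not say whether the lungs of a group came from separate litters, so p-values measure the spread between these libraries only.

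Notch receptors are single-pass proteins that are cut when a ligand on a neighbouring cell pulls on them. The released part enters the nucleus, joins the DNA-binding protein RBPJ and switches on repressors of the Hes and Hey families. In the lung, Notch signalling is known for the choice between airway cell types, for the recruitment of mural cells (pericytes and smooth muscle cells) to vessels, and, through Dll4 and Notch1, for the growth of arteries and capillaries.

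The hypoplastic lungs, the treated lungs and the control lungs did not differ in any of the 10 genes beyond the spread between lungs of 1 group. edgeR's quasi-likelihood test called 0 of 10 members at an adjusted p under 0.05 in each of the 3 comparisons, where 0.00771% of all genes tested were called between hypoplastic and control lungs and 0% in either comparison of treated lungs. At an unadjusted p under 0.05 the count was also 0 of 10 in each comparison, where the shares over all genes were 12.4% for hypoplastic against control, 5.56% for treated against hypoplastic, 4.17% for treated against control. DESeq2 and limma voom called 0 of 10 members in each comparison as well. In each comparison the values of the compared groups overlapped for all 10 members. Over all genes, 7.68% were higher and 9.05% lower without overlap in hypoplastic than in control lungs. The shares were 5.07% and 4.74% for treated lungs set against hypoplastic ones, and 4.37% and 5.02% when set against control lungs. The fitted change was above 0 for 6 of 10 members between hypoplastic and control lungs (51.9% of all genes), with a median log2 fold change of 0.0046 (0.0129 over all genes). Between treated and hypoplastic lungs it was above 0 for 4 of 10 (48.1% of all genes), with a median of -0.0918 (-0.01 over all genes). Between treated and control lungs it was above 0 for 5 of 10 (50.6% of all genes), with a median of -0.0033 (0.0028 over all genes).

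Several of the 10 genes differed widely between lungs of the same group, the endothelial ligand Dll4 and the target Hey1 most of all, while Jag2 varied little. Levels are given as CPM, the count scaled to a fixed library size after TMM correction, and are compared between libraries for 1 gene at a time, never between genes, because transcript lengths were not used. Library numbers are the replicate numbers of the labels.

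**Figure D1:**
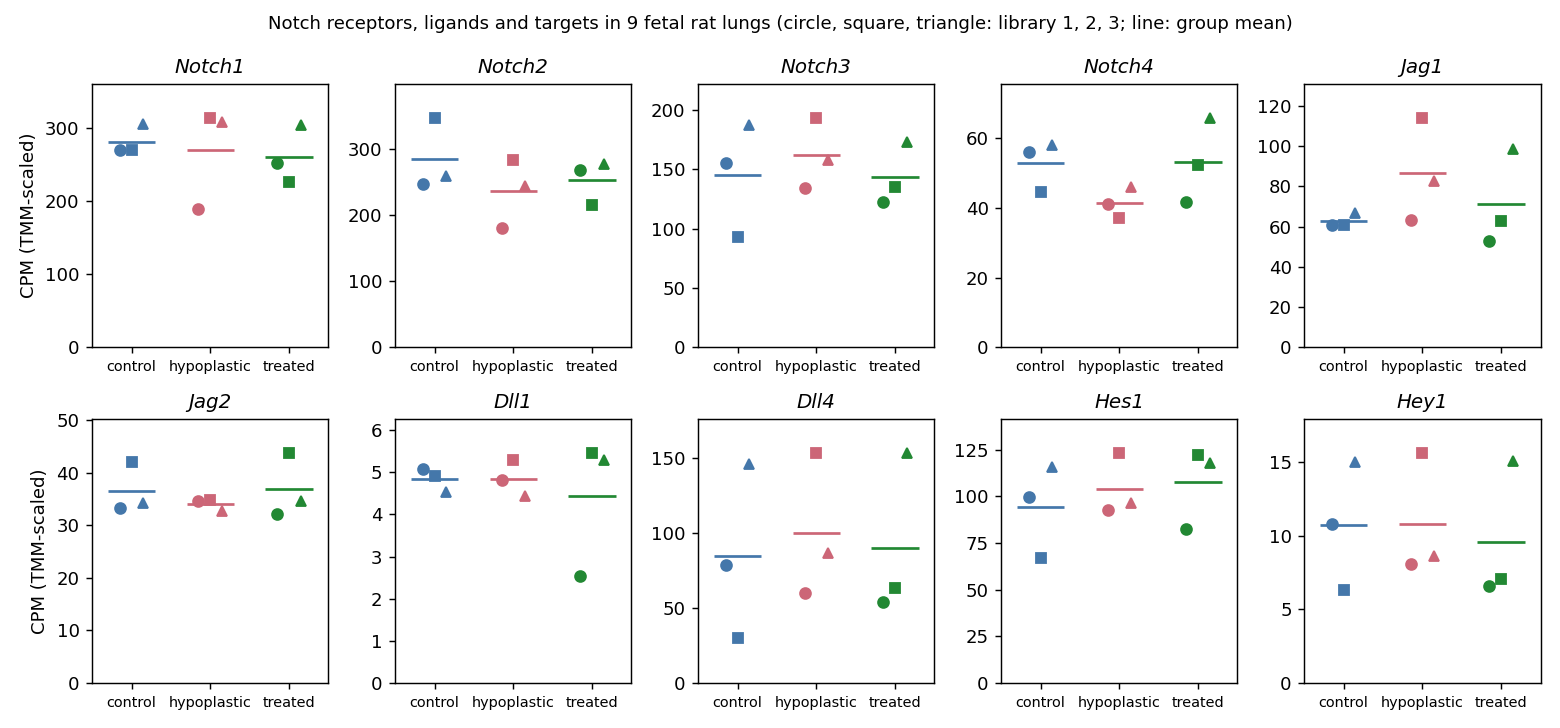
CPM of each of the 10 genes (vertical axes, each from 0) in the 3 groups, with 1 symbol per library and a line at the group mean. Every gene has overlapping groups, and control library 3, hypoplastic library 2 and treated library 3 stand above the rest for Dll4 and Hey1.

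Libraries held between 56922779 and 88243188 estimated counts, and the lowest member value, that of Dll1 in treated library 1, rested on 194 of them. Ribosomal and 7SL RNA took 14.1 to 19.9% of the counts. The lung epithelial markers Nkx2-1, Epcam and Cdh1 were present in every library. They summed to 1540 to 1660 CPM in control, 1270 to 1370 CPM in hypoplastic and 1430 to 1590 CPM in treated lungs, so that every hypoplastic lung was below all others. The surfactant gene Sftpc, at 292 to 496 CPM in hypoplastic lungs and 567 to 951 CPM in the other 6, separated in the same way. Not every such gene did. Of the 3 epithelial markers 2, and of 6 alveolar type II markers 4, were lower without overlap in hypoplastic than in control lungs (9.05% of all genes). In treated against hypoplastic lungs 1 of 3 and 3 of 6 were higher without overlap (5.07% of all genes). Markers of other tissues differed between libraries. The 6 heart muscle markers summed to 131 CPM in hypoplastic library 1 and 66.5 CPM in hypoplastic library 2 but to 2.36 to 9.61 CPM in the other 7, and the 3 basal cell markers summed to 38.1 CPM in hypoplastic library 1 against 1.02 to 2.2 CPM elsewhere. The 4 liver markers summed to 5.87 CPM in control library 2, mostly from Apoa1 at 5.65 CPM, and to 0.0271 to 0.197 CPM in the other 8, with Alb at 0.0357 CPM or less in every library. The 6 thymus and T cell markers summed to 3.53 to 8.96 CPM, with Cd4 up to 3.98 CPM, Rag1 up to 2.86 CPM and Cd3e at 0.079 CPM or less.

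Among the receptors, Notch1 (Gene ID 25496), the receptor of arterial endothelium and airway progenitors, was at 269, 269 and 305 CPM in control lungs, 189, 313 and 307 CPM in hypoplastic lungs and 251, 226 and 303 CPM in treated lungs (libraries 1, 2 and 3 in each case). The lowest value belonged to hypoplastic library 1 and the other hypoplastic libraries were at the top of the whole range. The log2 fold change was -0.06 (SE 0.19, edgeR adjusted p 0.917) in hypoplastic against control and -0.05 (SE 0.19, edgeR adjusted p 0.979) in treated against hypoplastic. The approximate 95% interval of the first spans a ratio of 0.713 to 1.29.

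Notch2 (Gene ID 29492), a receptor of airway epithelium and mesenchyme, was at 247, 346 and 259 CPM in control, 180, 282 and 244 CPM in hypoplastic and 267, 215 and 277 CPM in treated lungs. Control library 2 was the highest and hypoplastic library 1 the lowest. Its change in hypoplastic against control was -0.27 (SE 0.19, edgeR adjusted p 0.580), with an interval from a ratio of 0.618 to one of 1.11. With control library 2 left out the log2 change was -0.11.

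Notch3 (Gene ID 56761), the receptor of pericytes and vascular smooth muscle, was at 155, 93.1 and 187 CPM in control, 134, 193 and 158 CPM in hypoplastic and 122, 135 and 173 CPM in treated lungs. The control group alone spanned a ratio of 2.01 between its highest and lowest library and held the hypoplastic values apart from 1. The log2 changes were 0.16 (SE 0.24, edgeR adjusted p 0.826) between hypoplastic and control, -0.17 (SE 0.24, edgeR adjusted p 0.960) between treated and hypoplastic, and -0.01 (SE 0.24, edgeR adjusted p 0.999) between treated and control lungs. Without control library 2 the first of these was -0.08.

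Notch4 (Gene ID 406162), a receptor found mainly on endothelial cells, came closest to a separation of the groups. It was at 56.1, 44.6 and 58.2 CPM in control, 41.1, 37.1 and 46.0 CPM in hypoplastic and 41.6, 52.3 and 65.8 CPM in treated lungs. The hypoplastic group had the lowest mean, 41.4 CPM ± 4.46 (SD, n = 3), while control lungs averaged 53.0 CPM ± 7.31 (SD, n = 3) and treated lungs 53.2 CPM ± 12.1 (SD, n = 3), but hypoplastic library 3 lay above control library 2 and treated library 1. The log2 fold change was -0.36 (SE 0.18, edgeR adjusted p 0.438) in hypoplastic against control and 0.36 (SE 0.17, edgeR adjusted p 0.901) in treated against hypoplastic. Both comparisons use the same hypoplastic libraries, so their opposite signs are not independent of each other. The intervals, a ratio of 0.595 to 1.03 in the first and 0.98 to 1.69 in the second, include no difference. The sign of each stayed the same when any 1 of the 6 libraries compared was left out, with log2 changes of -0.47 to -0.28 and of 0.18 to 0.51. Control and treated lungs had nearly equal means, and the interval of their ratio ran from 0.766 to 1.32.

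**Figure D2:**
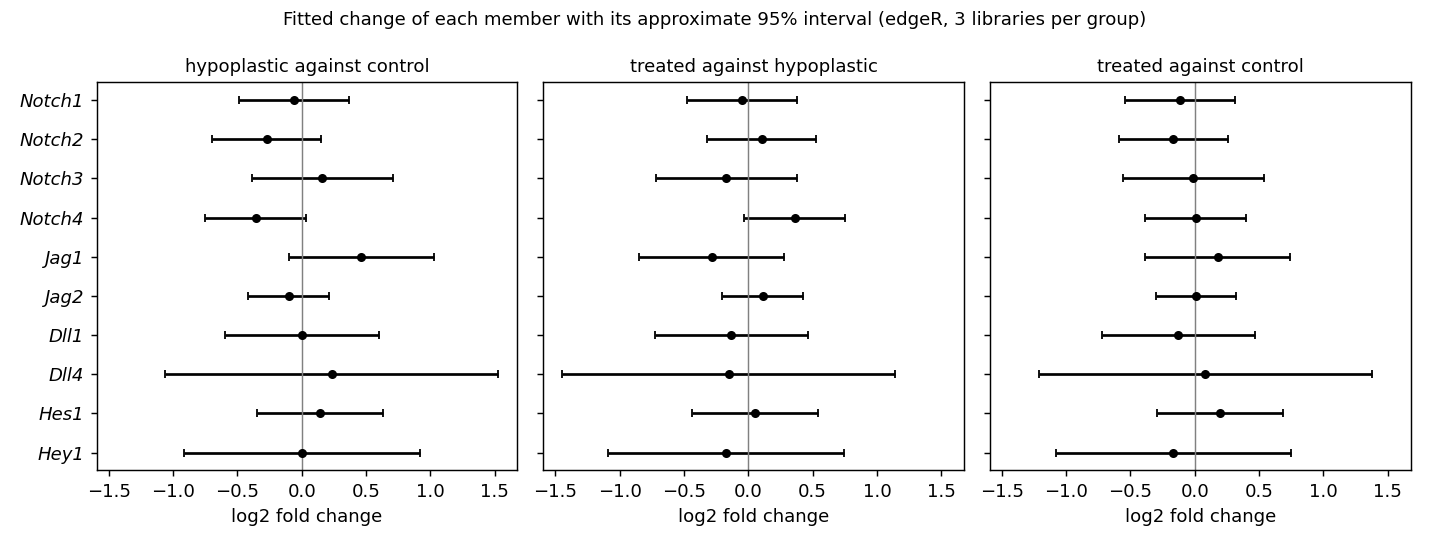
Log2 fold change of each gene (horizontal axes) for each of the 3 comparisons (1 panel each), with bars for the approximate 95% interval of edgeR's fit. Every interval crosses 0, and those of Dll4 and Hey1 are the widest of the 10.

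Of the Jagged ligands, Jag1 (Gene ID 29146), which signals to mural cells and to airway progenitors, had the largest log2 fold change of the 10 members in any comparison. It was at 61.0, 61.1 and 67.0 CPM in control, 63.5, 114 and 82.8 CPM in hypoplastic and 52.7, 62.6 and 98.8 CPM in treated lungs. The control libraries were close together, while the highest and lowest library differed by a ratio of 1.80 in the hypoplastic and 1.88 in the treated group. The log2 fold change in hypoplastic against control was 0.46 (SE 0.25, edgeR adjusted p 0.478), and it was 0.21 without hypoplastic library 2, which had the highest value. The values of hypoplastic library 1 and control library 3 overlapped. In treated against hypoplastic the log2 fold change was -0.28 (SE 0.25, edgeR adjusted p 0.940), and it was -0.04 without hypoplastic library 2.

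Jag2 (Gene ID 29147), a ligand used in the airway epithelium among other tissues, varied least. It was at 33.4, 42.0 and 34.3 CPM in control, 34.6, 34.8 and 32.8 CPM in hypoplastic and 32.2, 43.7 and 34.6 CPM in treated lungs, where only control library 2 and treated library 2 stood above 35 CPM. In hypoplastic against control the log2 fold change was -0.10 (SE 0.14, edgeR adjusted p 0.798), with an interval from a ratio of 0.750 to one of 1.16, the narrowest of the 10 genes.

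Of the Delta-like ligands, Dll1 (Gene ID 84010), which acts in neuroendocrine and arterial cells among others, was at 5.07, 4.92 and 4.54 CPM in control, 4.82, 5.29 and 4.45 CPM in hypoplastic and 2.55, 5.45 and 5.29 CPM in treated lungs. Treated library 1 stood below all others. The change in treated against hypoplastic was -0.13 (SE 0.27, edgeR adjusted p 0.967), and without treated library 1 it was 0.15.

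Dll4 (Gene ID 311332), the ligand of endothelial tip cells and arteries, was at 78.5, 29.9 and 146 CPM in control, 60.0, 153 and 86.9 CPM in hypoplastic and 53.6, 63.4 and 153 CPM in treated lungs. One library of each group was near 150 CPM and the other 6 were below 90 CPM, so that the same gap ran through every group. The control libraries differed by a ratio of 4.89, the hypoplastic libraries by 2.55 and the treated libraries by 2.85. Against this the group means were close, at 84.9 CPM ± 58.5 (SD, n = 3) for control, 100 CPM ± 47.9 (SD, n = 3) for hypoplastic and 90.0 CPM ± 54.7 (SD, n = 3) in treated lungs. Its log2 fold change was 0.23 (SE 0.58, edgeR adjusted p 0.893) between hypoplastic and control lungs. It was -0.15 (SE 0.58, edgeR adjusted p 0.979) between treated and hypoplastic, and 0.08 (SE 0.58, edgeR adjusted p 0.998) between treated and control lungs. The first interval ran from a ratio of 0.480 to one of 2.88, and thus held large differences in either direction, with 3 lungs per group. Single libraries set the sign: in hypoplastic against control the change was -0.21 without hypoplastic library 2, -0.17 without control library 2 and 0.88 without control library 3.

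Hey1 (Gene ID 155437), a repressor induced by Notch in vessels, followed the same libraries. It was at 10.8, 6.33 and 15 CPM in control, 8.11, 15.6 and 8.63 CPM in hypoplastic and 6.61, 7.07 and 15.1 CPM in treated lungs. Here too control library 3, hypoplastic library 2 and treated library 3 were the 3 highest, and control library 2 was the lowest. The group means of 10.7 CPM ± 4.32 (SD, n = 3), 10.8 CPM ± 4.16 (SD, n = 3) and 9.59 CPM ± 4.76 (SD, n = 3) in control, hypoplastic and treated lungs differed by less than 1 SD. In hypoplastic against control the log2 fold change was 0.0055 (SE 0.41, edgeR adjusted p 0.996). It was -0.36 without hypoplastic library 2, -0.26 without control library 2 and 0.33 without control library 3.

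Hes1 (Gene ID 29577), the repressor that holds airway progenitors back from the neuroendocrine fate, was at 99.7, 66.7 and 116 CPM in control, 92.6, 123 and 96.5 CPM in hypoplastic and 82.7, 122 and 118 CPM in treated lungs. Control library 2 was the lowest, and treated library 2 joined the 3 libraries that were high for Dll4. Its log2 fold change was 0.14 (SE 0.22, edgeR adjusted p 0.824) between hypoplastic and control lungs. It was 0.05 (SE 0.22, edgeR adjusted p 0.983) between treated and hypoplastic and 0.19 (SE 0.22, edgeR adjusted p 0.998) between treated and control lungs. Without control library 2 the first was -0.05.

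The promoter windows of the members were searched for TGGGAA, the core that RBPJ binds, on both strands. Windows ran from 250 bases before to 50 bases after the gene start, as given by RefSeq for build GRCr8. Of the 10 members 8 had at least 1 window, and Dll4 and Hey1 had none. The core was present in 4 of the 9 member windows (44.4%; those of Hes1, Notch3, Notch4 and Dll1) and in 25.7% of all 33469 windows. A pair of cores on the same strand, starting at most 20 bases apart, was found in the Hes1 window alone among the members, and in 0.356% of all windows. The 250 bases before the start of Hes1 (chr11:84213046-84213295, minus strand) and a short stretch around each other match are shown 5′ to 3′ along the gene, with the core in capitals (TTCCCA where it lies on the opposite strand).
Hes1: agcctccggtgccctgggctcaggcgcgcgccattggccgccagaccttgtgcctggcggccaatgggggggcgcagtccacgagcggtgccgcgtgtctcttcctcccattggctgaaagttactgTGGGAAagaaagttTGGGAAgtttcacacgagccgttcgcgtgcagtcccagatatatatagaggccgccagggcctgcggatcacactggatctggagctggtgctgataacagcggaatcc
Notch3 (chr7:11834536-11834560, minus strand): ggacgtgcccggagcccTGGGAAag
Notch4 (chr20:4189296-4189322, minus strand): actgTTCCCAgacctgtaaaaaggaaa
Notch4 (chr20:4189143-4189182, minus strand): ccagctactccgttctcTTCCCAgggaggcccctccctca
Dll1 (chr1:64993437-64993476, minus strand): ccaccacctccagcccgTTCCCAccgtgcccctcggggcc
Dll1 (chr1:64993334-64993373, minus strand): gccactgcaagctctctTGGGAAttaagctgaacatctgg
The cores of Hes1 start 123 and 109 bases before the gene start, that of Notch3 42 bases after it. Those of Notch4 start 246 and 93 bases before the start, and those of Dll1 185 and 82 bases before. The matches describe the letters only.

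The spread between lungs was then set beside that of all genes. The within-group SD of log2 CPM (with 0.5 added to each CPM) was 0.898 for Dll4 and 0.576 for Hey1, at the 98.5 and 94.3 percentiles of the 12966 genes, where the median gene had 0.205. Notch3 (0.367), Jag1 (0.366), Dll1 (0.324) and Hes1 (0.324) lay between the 78.4 and 83.7 percentiles. Notch1, Notch2 and Notch4 were at 0.276, 0.268 and 0.240, and Jag2, at 0.169, was the only member below the median. The share of the variance of log2 CPM that lay between groups was 4.74% for Dll4, 3.33% for Hey1, 5.04% for Notch1 and 8.08% for Notch3, while the median gene had 23.4%. It was highest for Notch4 at 40.5%.

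**Figure D3:**
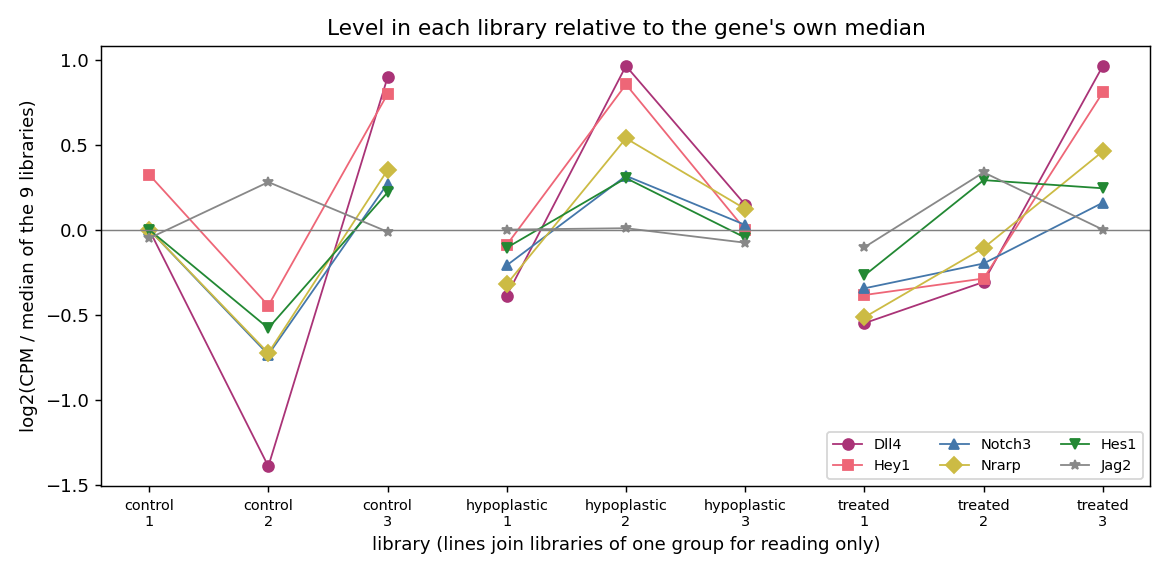
Log2 ratio of each gene's CPM to its own median over the 9 libraries (vertical axis) for Dll4, Hey1, Notch3, Nrarp, Hes1 and Jag2 by library (horizontal axis). Dll4, Hey1, Notch3 and Nrarp peak in control library 3, hypoplastic library 2 and treated library 3 and are lowest in control library 2, while Jag2 stays near 0 in most libraries.

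The order of the libraries was shared by several members. Control library 3, hypoplastic library 2 and treated library 3 were the 3 highest of the 9 for Dll4, Hey1 and Notch3, that is for 3 of 10 members, and for 6.01% of all genes tested. They were each the highest of their own group for 5 of 10 members (also Notch1 and Jag1), and for 13.1% of all genes. Control library 2 was the lowest of the 9 for Dll4, Hey1, Notch3 and Hes1, 4 of 10 members, and for 22% of all genes. Control library 2 also had the highest summed level of liver (5.87 CPM), red cell (10600 CPM against 3110 to 6350 CPM in the other 8) and alveolar type II markers (5560 CPM), the lowest depth (56922779 estimated counts) and the highest share of ribosomal and 7SL RNA (19.9%), and the part of these in its Notch values was not tested. Control library 3, hypoplastic library 2 and treated library 3 were singled out after their Dll4 values were seen, so the counts are descriptions. They did not share sex by Xist and Ddx3y (1 male, 2 females), depth (72252538, 60950148 and 65452123 estimated counts) or an extreme share of ribosomal and 7SL RNA (14.7, 14.1 and 16.2%). They did share the 3 lowest summed red cell levels (3420, 3110 and 3530 CPM, against 3760 CPM or more elsewhere). Their summed levels of the thymus and T cell list (8.43, 8.43 and 8.96 CPM, against 7.22 CPM or less) and of pericyte markers (284, 309 and 288 CPM, against 251 CPM or less) were the 3 highest. In the thymus and T cell list, Cd4 was at 2.98, 3.98 and 3.58 CPM in these libraries and Cd3e at 0.0271 CPM or less. The part of all these marker levels in their Notch values was not tested. Without these 3 libraries together, 1 from each group, edgeR called 0 of 10 members in each comparison. The fit of all 9 libraries had called none either and fewer lungs can detect less, so this is not a check on that result.

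Some marker genes of vessel cells had the same 3 libraries on top. Pdgfrb, the receptor of mural cells for PDGF-B, was at 78.4, 28.4 and 81.8 CPM in control, 59.2, 82.2 and 59.2 CPM in hypoplastic and 39.4, 49.8 and 85.3 CPM in treated lungs. The pericyte channel gene Kcnj8 was at 8.59, 2.94 and 23.9 CPM, then 12.2, 29.6 and 19.2 CPM, then 15.2, 13.3 and 29.3 CPM in the same groups. Of the 7 pericyte markers 3 (Pdgfrb, Kcnj8 and Higd1b) had the 3 named libraries on top, where 6.01% of all genes had. So had 2 of 6 arterial markers (Gja4, a connexin of arterioles, and Efnb2, the ephrin of arteries) and 2 of 10 endothelial markers (Pecam1 and Esam), but 0 of 6 smooth muscle markers. The pericyte marker Cspg4 was highest in hypoplastic library 1 (94.2 CPM) and control library 1 (92.7 CPM), and Rgs5 in hypoplastic library 1 (7.73 CPM). The summed pericyte level ran from 133 to 284 CPM in control, 233 to 309 CPM in hypoplastic and 173 to 288 CPM in treated lungs. The summed arterial level was 121, 121 and 126 CPM in the 3 named libraries and 74.1 to 90.5 CPM in the other 6. In hypoplastic against control lungs the fitted change was above 0 for 6 of 7 pericyte and 6 of 6 smooth muscle markers (51.9% of all genes). It was above 0 for 0 of 7 and 0 of 6 in treated against hypoplastic lungs (48.1%). The counts were 4 of 7 and 4 of 6 in treated against control lungs (50.6%). None of these markers was called. Markers of 1 cell type can vary together, so the genes are not separate observations. Smooth muscle markers summed to 190 to 518 CPM in control, 467 to 867 CPM in hypoplastic and 260 to 716 CPM in treated lungs. In RNA from whole lung, fewer cells of a type and less RNA per cell cannot be told apart, and the part of vessel cell number in the Notch values was not tested.

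Notch3, itself a gene of mural cells, was compared with the 7 pericyte markers across the 9 libraries. Pearson's r of log2 Notch3 CPM with the log2 summed marker level was 0.975 (exact permutation p 2.48e-05, adjusted p 0.000273 over 11 relations), and Spearman's rho was 0.950 (exact permutation p 0.000353, adjusted p 0.00388). Without control library 2 and treated library 1, the libraries farthest from the median marker level, r was 0.924. After the group means were subtracted r was 0.976, and with any 1 library left out it was 0.945 to 0.990. Control library 3, hypoplastic library 2 and treated library 3 were the highest for both Notch3 and the summed markers. In the other 6 libraries r was 0.959 (exact permutation p 0.00556, adjusted p 0.0611), which did not pass the threshold on adjusted p. Spearman's rho was 0.886 there (exact permutation p 0.0333). Genes outside the marker list, Agtr1a (0.989) and Col6a2 (0.984), had a higher r with Notch3 over the 9 libraries.

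**Figure D4:**
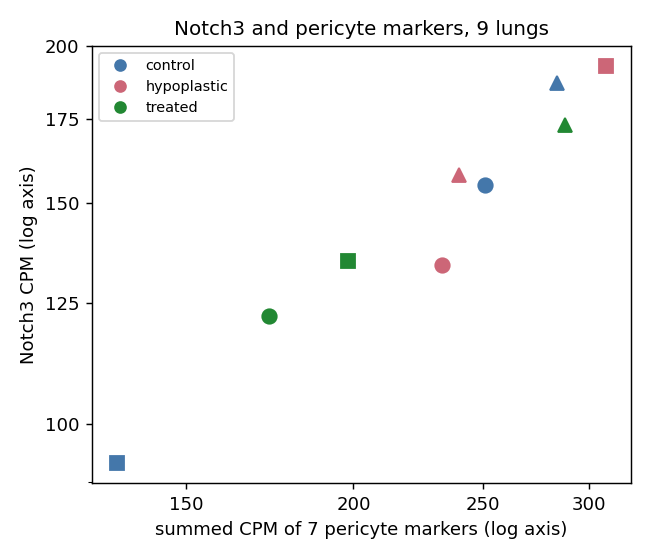
Notch3 CPM (vertical log axis) against the summed CPM of the 7 pericyte markers (horizontal log axis), 1 symbol per library coloured by group (circle, square and triangle for libraries 1, 2 and 3). The libraries of all 3 groups rise together, from control library 2 (133 and 93.1 CPM) to hypoplastic library 2 (309 and 193 CPM).

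The same comparison with the summed level of 10 endothelial markers gave no relation with an adjusted p under 0.05 for any of the 10 members. The summed level ran from 1070 to 1330 CPM in control, 1050 to 1260 CPM in hypoplastic and 977 to 1300 CPM in treated lungs. For Hes1 Pearson's r was 0.704 (exact permutation p 0.0348, adjusted p 0.0958 over 11 relations) and Spearman's rho 0.533 (exact permutation p 0.148, adjusted p 0.297). Without hypoplastic library 3 and treated library 1 the r of Hes1 was 0.805. For Dll1 r was 0.718 (exact permutation p 0.02, adjusted p 0.0958) and rho 0.383 (exact permutation p 0.312, adjusted p 0.491). The r of Dll1 was -0.0517 without the same 2 libraries, so it rested on them. For Dll4 r was 0.61 (exact permutation p 0.0818, adjusted p 0.15) and rho 0.6 (exact permutation p 0.0968, adjusted p 0.266). For Hey1 r was 0.708 (exact permutation p 0.0325, adjusted p 0.0958) and rho 0.717 (exact permutation p 0.0369, adjusted p 0.203). The values of Dll4 and Hey1 fell into 2 clusters of libraries, of 3 and 6, so these coefficients can rest on the gap between the clusters. Within the cluster of 6, r was 0.332 for Dll4 and 0.606 for Hey1.

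For each member the 2 genes with the most similar profile over the 9 libraries, by Pearson's r of log2 CPM, were taken from about 9571 genes with a mean of at least 5 CPM, as a description without a test. For Dll4 these were Eva1b (0.986) and Il6st (0.985), for Hey1 Ralgdsl1 (0.974) and Septin4 (0.974), and for Notch3 the angiotensin receptor gene Agtr1a (0.989) and the collagen VI gene Col6a2 (0.984). For Jag1 they were the interferon-induced gene Mx1 (0.980) and Jmjd1c (0.979), and for Hes1 Zfp496 (0.963) and the FGF signalling inhibitor Spry4 (0.955). For Notch1 they were Smpd1 (0.980) and Ccnj (0.965), and for Notch2 Trak1 (0.982) and Atg2a (0.976). The likeness was lower for Notch4 (Poldip3, 0.927, and Cblc, 0.891), Jag2 (Rad51d, 0.938, and Lamtor4, 0.892) and Dll1 (Cacnb2, 0.862, and Arhgdib, 0.848).

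The wider pathway was read from a list of 52 further genes, of which 47 were in the table and 45 were tested. edgeR called 0 of 45 in each comparison. At an unadjusted p under 0.05, 3 were higher and 4 lower in hypoplastic than in control lungs, where 6.67% and 5.69% of all genes were. In treated against hypoplastic lungs 3 were higher and 2 lower (2% and 3.56% of all genes), and in treated against control lungs 0 were higher and 1 lower (1.67% and 2.5% of all genes). Without overlap, 2 of 45 were higher and 4 lower in hypoplastic than in control lungs (7.68% and 9.05% of all genes). The counts were 1 and 2 in treated against hypoplastic (5.07% and 4.74%) and 1 and 3 in treated against control lungs (4.37% and 5.02%). Genes named below for separate groups are among these, near the shares over all genes.

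Among the other targets, Nrarp, a feedback inhibitor induced by Notch, was at 30.6, 18.5 and 39.0 CPM in control, 24.5, 44.4 and 33.3 CPM in hypoplastic and 21.4, 28.4 and 42.1 CPM in treated lungs, again with the 3 named libraries on top. Its log2 fold change was 0.21 (SE 0.32, edgeR adjusted p 0.824) in hypoplastic against control. Hey2, a Hey repressor of arteries and heart muscle, was low but had separate groups, and is named after its values were seen. It was at 0.567, 0.285 and 0.692 CPM in control, 1.22, 1.05 and 0.923 CPM in hypoplastic and 0.382, 0.275 and 0.587 CPM in treated lungs, on 16 to 80 counts per library. Every hypoplastic library was above every other library. The log2 fold change was 1.02 (SE 0.38, p 0.0229, edgeR adjusted p 0.359) in hypoplastic against control and -1.38 (SE 0.38, p 0.00508, edgeR adjusted p 0.826) in treated against hypoplastic, both short of the threshold and sharing the hypoplastic libraries. Heart muscle markers summed to 131, 66.5 and 2.95 CPM in hypoplastic libraries 1, 2 and 3, where Hey2 was at 1.22, 1.05 and 0.923 CPM. The part of heart muscle in the Hey2 values was not tested. Heyl overlapped in all groups, and Hes5 was too low to test.

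Of the 5 ligand-like and matrix genes tested, none was called in any comparison. Mfap5, a microfibril protein that can bind Notch ligands and receptors, was at 18.3 CPM in hypoplastic library 2 and between 0.428 and 2.58 CPM in the other 8, so its fitted log2 change, 2.67 (SE 0.95, edgeR adjusted p 0.347), rested on 1 lung. Dlk1, a Delta-like protein of fetal tissues that lacks the Notch-activating domain, was at 1170, 1520 and 1950 CPM in control and 1030, 1240 and 1020 CPM in hypoplastic lungs, with overlap, a log2 change of -0.49 (SE 0.19, edgeR adjusted p 0.366). In treated lungs Dlk1 was at 1460, 1340 and 1230 CPM. Its relative Dlk2 was at 0.950, 4.08 and 1.65 CPM in control and 1.5, 0.992 and 0.734 CPM in treated lungs, a change of -1.02 (SE 0.54, edgeR adjusted p 0.998). Untreated hypoplastic lungs had 1.3, 0.523 and 0.67 CPM of Dlk2, a change of -1.39 against control (SE 0.56, edgeR adjusted p 0.379). Both comparisons share the control lungs, of which library 2 was the highest.

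Rfng, a Fringe enzyme that adds sugars to Notch receptors, was at 10.6, 11.1 and 10.7 CPM in control, 8.55, 7.82 and 8.60 CPM in hypoplastic and 8.95, 8.87 and 7.18 CPM in treated lungs. All 6 hypoplastic libraries, treated or not, were below all control libraries. The log2 fold change was -0.38 (SE 0.14, edgeR adjusted p 0.359) in hypoplastic against control and -0.37 (SE 0.14, edgeR adjusted p 0.998) in treated against control, and these comparisons share the control lungs. The other 4 sugar-transfer genes (Lfng, Mfng, Pofut1 and Poglut1) had overlapping groups in all 3 comparisons. Of the 9 protease genes that cut ligand or receptor, 0 were called and 0 had an unadjusted p under 0.05. The presenilin gene Psen2, named after its values were seen, was at 17.3, 17.1 and 17.1 CPM in control, 13.6, 16.6 and 10.4 CPM in hypoplastic and 16.5, 12 and 15 CPM in treated lungs, again with all control libraries on top. Its log2 change was -0.34 (SE 0.18, edgeR adjusted p 0.478) between hypoplastic and control lungs and -0.24 (SE 0.18, edgeR adjusted p 0.998) between treated and control lungs. Ncstn, a further subunit of the same protease and named likewise, was at 189, 182 and 177 CPM in control and 165, 176 and 146 CPM in treated lungs, without overlap, with a log2 change of -0.17 (SE 0.11, edgeR adjusted p 0.998). The remaining 7 overlapped in all 3 comparisons.

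None of the 10 genes of the nuclear complex tested was called in any comparison. The co-repressor gene Ncor1 was at 182, 187 and 187 CPM in control, 161, 177 and 150 CPM in hypoplastic and 207, 201 and 185 CPM in treated lungs. Every hypoplastic library was below every other library. Its log2 change was 0.28 (SE 0.09, edgeR adjusted p 0.859) in treated against hypoplastic and -0.19 (SE 0.09, edgeR adjusted p 0.435) in hypoplastic against control. Both comparisons share the hypoplastic libraries. The co-repressor gene Spen, named after its values were seen, had a log2 change of 0.41 in treated against hypoplastic lungs (SE 0.17, edgeR adjusted p 0.896). Rbpj, the DNA-binding partner of all 4 receptors, was at 217, 163 and 253 CPM in control, 237, 312 and 255 CPM in hypoplastic and 198, 211 and 248 CPM in treated lungs. Its change in hypoplastic against control was 0.35 (SE 0.17, edgeR adjusted p 0.441), with overlap of hypoplastic library 1 and control library 3.

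Markers of the epithelial cell types whose fate Notch is known to control were set beside these values. The summed level of 5 multiciliated markers was 103 CPM in control library 2 and 40.4 to 65.7 CPM in the other 8 libraries, with overlap of all groups. Club cell markers summed to 216 to 396 CPM in control, 189 to 318 CPM in hypoplastic and 209 to 305 CPM in treated lungs, also overlapping. The neuroendocrine markers, restrained by Hes1, summed to 1.27 to 2.75 CPM in control, 2.52 to 4.39 CPM in hypoplastic and 1.36 to 1.96 CPM in treated lungs, so that every hypoplastic lung was above every treated one. Alveolar type II markers summed to 2880 to 5560 CPM in control, 2000 to 2480 CPM in hypoplastic and 2530 to 3560 CPM in treated lungs, and every hypoplastic lung was below all others. None of these marker genes was called by edgeR in any comparison, and the part of these cell types in the Notch values was not tested.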

How the data were processed

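The authors deposited 1 table of estimated counts per gene and library for ribosome-depleted total RNA, with NCBI Gene IDs. Only 19.5% of its values above 0 were whole, so the counts were taken as estimated counts without normalization and rounded for each test (gene counts had been planned for). The submitters' processing notes name rn7 and DESeq2. Aligner, counter and annotation: not given in the sources used here. Symbols came from RefSeq (GRCr8), matching 17314 IDs (99.1%). Control columns were named c and matched to the sample titles by number.

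All 9 libraries entered 1 fit of edgeR 4.0.16 (R 4.3.3), with TMM factors, filterByExpr, glmQLFit and glmQLFTest, and Benjamini-Hochberg adjustment over 12966 genes; a call needs an adjusted p under 0.05. Standard errors are the absolute change over the square root of F, and intervals use the fit's degrees of freedom; both are approximate. The fit was tested on simulated data in which every gene had the same setting of spread and the planted changes were larger than those fitted for the members. It does not show how small a change in the members could have been found. No 2 libraries agreed within sampling noise (lowest chi-square per degree of freedom 73.08). Correlations used exact two-sided permutation over 11 relations.

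The members, lists and tests were chosen with earlier results of these data known. All members were named; of the wider list, called genes and, per comparison, the 3 of smallest p with a mean of at least 1 CPM. One gene that this rule names is not reported here. Egfl7 is in both the wider and the endothelial list, and Hey2 in both the wider and the arterial list. Marker lists also covered thymus, liver and red cells: thymus markers to 3.53 to 8.96 CPM, liver markers to 0.0271 to 5.87 CPM and red cell markers to 3110 to 10600 CPM over all libraries. Alternatives were other size factors, filters and tests, the 6 libraries compared alone, a replicate block, sex, removal of ribosomal rows and omission of each library.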

Additional observations from a re-analysis of the deposited data

How the results depend on the processing

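edgeR, DESeq2 and limma voom called 0 of the 10 Notch members in all 3 comparisons, as did edgeR under the other alternatives run and with each library left out. The adjusted p of a member was 0.376 or higher in all 510 values of a change under an alternative. Of those values 456 kept the direction and 54 reversed, none of them called. Of the 30 changes (10 genes, 3 comparisons), 8 kept their direction with each of the libraries compared left out. Over all genes, hypoplastic against control had 1 call (Spp1), against 207 with DESeq2, 4 with only the 6 libraries compared and 2 with the replicate block, and 0 to 45 with 1 library left out. The comparisons of treated lungs with hypoplastic and with control lungs had 0 edgeR calls (721 and 541 genes at an unadjusted p under 0.05), against 17 and 14 with DESeq2 and 0 to 44 and 0 to 1 with 1 library left out. No paired analysis is implied by the labels: same-numbered libraries' deviations from the group means correlated at -0.368 to 0.312 (above 0.1 in 3 of 9 pairs), those of other pairs at -0.535 to 0.501. With the replicate block the change of Dll1 in hypoplastic against control was -0.0032 and that of Notch4 in treated against control -0.0026. Other reversals were -0.0039 for Hey1 in hypoplastic against control, 0.0343 for Notch3 and -0.0125 for Notch4 in treated against control, with limma voom, and -4e-04 for Jag2 in treated against control with the sex covariate. Without control library 3, hypoplastic library 2 and treated library 3 together, a choice made after seeing the data, hypoplastic against control gave -0.12 for Dll1 and -0.0502 for Hey1, and treated against control 0.0499 for Notch3, -0.11 for Notch4 and -0.0881 for Jag1. The ranges that follow are log2 changes with 1 library left out, each with the libraries whose omission reversed the sign. Between hypoplastic and control lungs these were -0.18 to 0.14 for Notch1 (control 3 and hypoplastic 1), -0.0798 to 0.38 for Notch3 (control 2), -0.16 to 0.0086 for Jag2 (control 2) and -0.0625 to 0.0602 for Dll1 (control 3 and hypoplastic 2). They were -0.21 to 0.88 for Dll4 (control 2 and hypoplastic 2), -0.0545 to 0.32 for Hes1 (control 2) and -0.36 to 0.33 for Hey1 (control 2 and hypoplastic 2) in the same comparison. Between treated and hypoplastic lungs these were -0.25 to 0.0713 for Notch1 (hypoplastic 2, hypoplastic 3 and treated 2), -0.0541 to 0.25 for Notch2 (hypoplastic 1), -0.0286 to 0.20 for Jag2 (treated 2) and -0.31 to 0.15 for Dll1 (treated 1). They were -0.77 to 0.29 for Dll4 (hypoplastic 2, treated 1 and treated 2), -0.0489 to 0.21 for Hes1 (hypoplastic 1, treated 2 and treated 3) and -0.65 to 0.19 for Hey1 (hypoplastic 2, treated 1 and treated 2) in the same comparison. Between treated and control lungs these were -0.25 to 0.21 for Notch3 (control 1, control 3, treated 1 and treated 2), -0.17 to 0.16 for Notch4 (control 2 and treated 3), -0.13 to 0.36 for Jag1 (treated 3) and -0.13 to 0.12 for Jag2 (control 1, control 3 and treated 2). They were -0.31 to 0.15 for Dll1 (treated 1), -0.54 to 0.73 for Dll4 (control 2 and treated 3), -0.0023 to 0.37 for Hes1 (control 2) and -0.65 to 0.15 for Hey1 (control 3, treated 1 and treated 2) in the same comparison. Pearson's r with the endothelial markers ran from -0.0857 to 0.267 for Notch1 and from -0.262 to 0.334 for Jag2 with 1 library left out. The cause of these reversals was not tested. Member values rested on at least 194 estimated counts per library, and what depth limits was not tested.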
